A study of Mus musculus with 21 samples.

Results

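The transcripts of 7 chemokine receptors, *Ccr7*, *Cxcr5*, *Cxcr4*, *Ccr9*, *Cxcr6*, *Cxcr3* and *Ccr2*, were followed in T cells sorted from mouse spleen. The receptors were chosen by gene name, and all 7 were found among the 12994 genes of the expression table. CD4+ and CD8+ T cells came from female C57BL6/J mice without any genetic change named in the labels, kept either in an enriched environment from 4 weeks of age for a further 4 weeks (EE: large cages with running wheels, shelters and toys, mice in larger groups) or in a standard environment (SE: cages without objects). The libraries numbered 6 for CD4+ EE, 5 for CD4+ SE, 6 for CD8+ EE and 4 for CD8+ SE. By the numbers in their labels they came from 12 mice, of which 9 gave both populations. The mice of one environment lived together, and an effect of the cage cannot be told apart from one of the environment. In the study's methods, T cells were gated as CD45+ CD11b- CD3+ and then CD4+ or CD8+. The gate is given there after the staining of another tissue, and its sentence names no tissue. Splenocytes were treated to remove red blood cells.

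Chemokine receptors are G protein-coupled receptors at the cell surface that steer migrating leukocytes along gradients of secreted chemokines. In the spleen, Ccr7 and its ligands hold T cells in the T zone, while Cxcr5 directs cells that express it into B-cell follicles. Other receptors are known for guiding T cells to particular tissues (Ccr9 to the small intestine, Cxcr6 to the liver and other peripheral sites) or to inflamed sites (Cxcr3 and Ccr2).

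Each value was a number of distinct cDNA molecules of a gene, counted by molecular tags and divided by the size factor of the library (normalized count). Total molecules ranged from 145546 to 183941 in the 6 CD4+ EE libraries, from 157556 to 190885 in the 5 CD4+ SE libraries, from 179696 to 221454 in the 6 CD8+ EE libraries and from 179008 to 203322 in the 4 CD8+ SE libraries. At this depth all the receptors except *Ccr7* were counted with at most 31 molecules in a library. The 46 pairs of libraries of the same group all differed by more than sampling noise (chi-square test on molecules, largest p = 6e-119). This test covers counting noise only and does not show that the libraries are independent. Each library was used as a separate replicate, as labelled.

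The markers of the sorted populations followed the labels. *Cd4* had a mean of 63.5 in CD4+ EE and 52.2 in CD4+ SE libraries, against 0.161 in CD8+ EE and 0.694 in CD8+ SE libraries, and *Cd8b1* had 2.54 and 4.92 against 206 and 204. The 9 T-cell markers summed to 684 to 907 in CD4+ libraries and 671 to 825 in CD8+ libraries, with *Cd3d* the most abundant. Transcripts of some B-cell markers were present mainly in CD4+ libraries. The 13 B-cell markers summed to 138 to 249 in CD4+ EE libraries and 35.0, 297, 197, 120 and 252 in CD4+ SE replicates 1, 3, 4, 5 and 6, and *Cd74*, the most abundant, had means of 119 and 98.9. In CD8+ libraries the same markers summed to 33.8 to 105 in EE and 39.4 to 50.3 in SE, most of it *Ighm*, and *Ms4a1*, *Blk* and *Ebf1* were at 0 in both groups. The means of *Ighm* were 41.2 in CD4+ EE, 40.2 in CD4+ SE, 37.7 in CD8+ EE and 37.9 in CD8+ SE libraries. Between the populations *Ighm* and *Cd79b* had log2 differences of 0.08 and 0.58 (adjusted p = 0.863 and 0.408 in limma). Globin and other erythroid transcripts (5 of 5 markers, most abundant *Hba-a1*) set 2 libraries apart, with sums of 581 in CD8+ EE replicate 6 and 1030 in CD8+ SE replicate 3 against at most 26.7 in the other libraries.

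CD4+ and CD8+ libraries differed in the counts of some of these receptors. *Ccr9* and *Cxcr6* were higher in CD8+ libraries, and *Cxcr5* was higher in the CD4+ library of every mouse with both populations. The sum of the B-cell markers was also higher in most CD4+ libraries, and the part of B-cell RNA in *Cxcr5* was not tested. *Ccr7*, *Cxcr4*, *Cxcr3* and *Ccr2* had overlapping values. Of the 7 receptors, 5 had a mean normalized count above 2 over the 21 libraries and entered the test of all genes (limma on log2(normalized count + 1), Benjamini-Hochberg adjustment over all genes tested), and *Cxcr5* (mean 1.75) and *Ccr2* (mean 1.17) did not. Between the populations 2 of the 5 had an adjusted p under 0.05, where 4.4% of all 7938 genes tested did, and both were higher in CD8+ T cells, where 2.07% of the tested genes were called in that direction. *Ccr9* and *Cxcr6* passed the limit on the mean only through their CD8+ libraries, so that the number called among the tested receptors carries little weight by itself. In these bulk libraries, fewer cells expressing a receptor and fewer transcripts in each cell cannot be told apart.

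**Figure D1:**
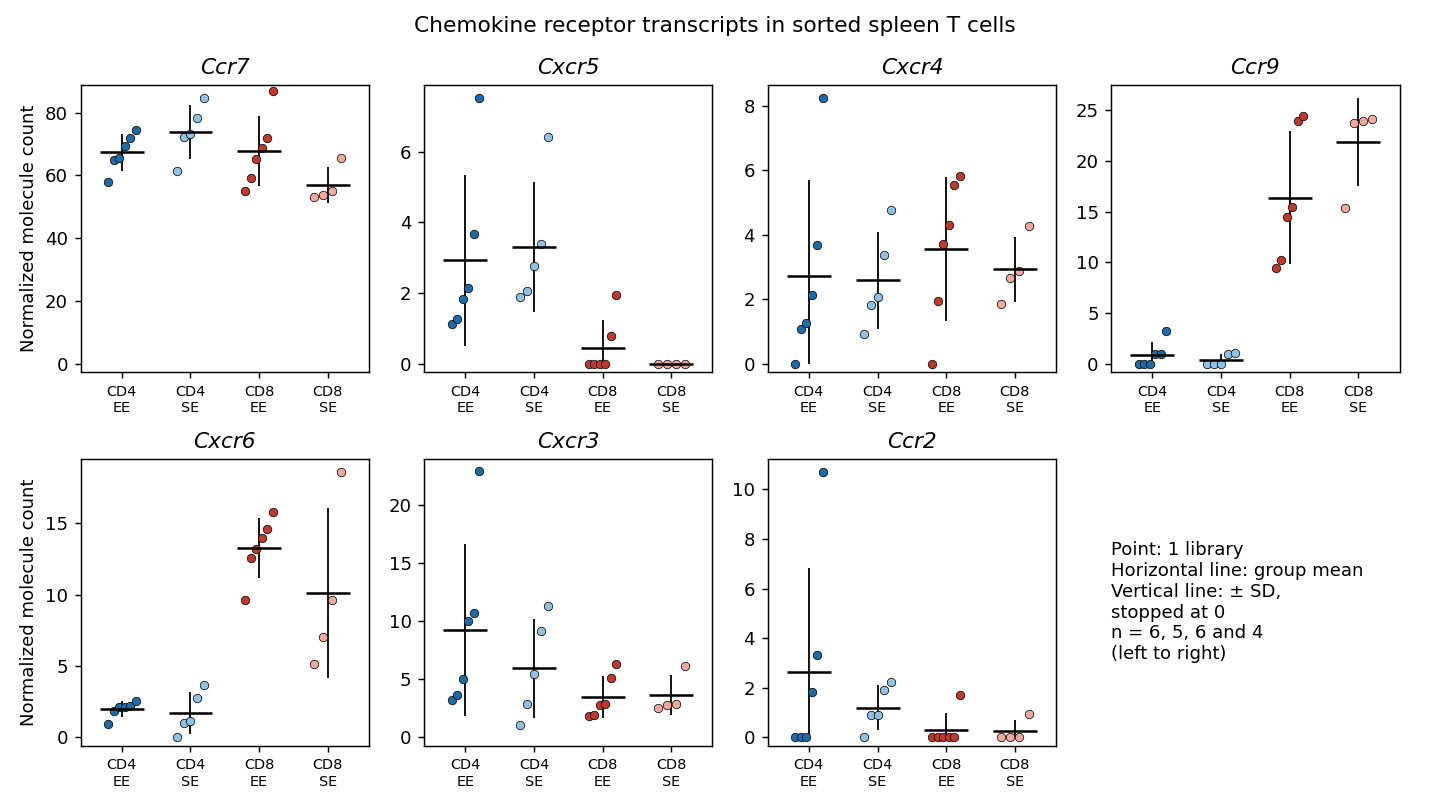
Normalized molecule counts (vertical axis) of the 7 receptors in CD4+ and CD8+ T cells from EE and SE mice. Points are libraries, horizontal lines group means and vertical lines ± SD, stopped at 0 (n = 6, 5, 6 and 4 from left to right), and the CD8+ libraries lie above every CD4+ library for *Ccr9* and *Cxcr6*, and *Cxcr5* is at 0 in all 4 CD8+ SE libraries.

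*Ccr7* (ENSMUSG00000037944, minus strand of chromosome 11 of GRCm38 from 99144196 to 99155077) encodes the receptor for Ccl19 and Ccl21 and is a feature of T cells that recirculate through lymphoid organs. In CD4+ EE libraries the normalized count of *Ccr7* was 57.9 to 74.3 (median 67.5), and it was 78.2, 61.3, 73.1, 84.5 and 72.1 in CD4+ SE replicates 1, 3, 4, 5 and 6. In CD8+ EE libraries it was 55.0 to 87.0 (median 66.9), and in CD8+ SE replicates 1, 2, 3 and 6 it was 53.1, 54.9, 65.4 and 53.8. All 4 groups overlapped. The group means ran from 73.9 (n = 5) in CD4+ SE over 67.8 (n = 6) in CD8+ EE and 67.3 (n = 6) in CD4+ EE to 56.8 (n = 4) in CD8+ SE, with SDs of 5.75 to 11.2, and no neighbours in this order were separated. The log2 difference of CD4+ from CD8+ libraries was 0.19 (SE of the estimate 0.10, adjusted p = 0.414 in limma), and the CD4+ value was the higher in 6 of 9 mice (exact sign-flip test, p = 0.434). Summed molecules, 762 in CD4+ and 697 in CD8+ T cells, gave a ratio per total molecules of 1.13 with a 95% interval of 1.02 to 1.26 that covers counting error and not the spread between mice. Within EE mice alone the log2 difference was 0.001, and within SE mice alone it was 0.37 (unadjusted p = 0.0334, adjusted p = 0.467 in limma).

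*Cxcr5* (ENSMUSG00000047880, minus strand of chromosome 9 from 44511787 to 44561877) encodes the receptor for Cxcl13, carried by B cells and by follicular helper T cells. Its normalized count was 1.11 to 7.51 (median 1.99) in CD4+ EE libraries and 2.06, 2.75, 6.40, 1.90 and 3.38 in CD4+ SE replicates 1, 3, 4, 5 and 6. In CD8+ EE libraries it was 1.93 in replicate 2, 0.791 in replicate 5 and 0 in the other 4, and it was 0 in all 4 CD8+ SE libraries, where a count of 0 allows up to 3 molecules in a library. The ranges of the populations overlapped, since CD8+ EE replicate 2 lay above the lowest CD4+ libraries. In each of the 9 mice with both populations, however, the CD4+ library had the higher value. The mean over these mice was 2.86 in CD4+ and 0.303 in CD8+ T cells, a difference of 2.55 (exact two-sided sign-flip test, p = 0.00391, the smallest these 9 mice allow). Summed over libraries, 34 molecules were counted in CD4+ and 3 in CD8+ T cells, a ratio per total molecules of 11.7 with a 95% interval of 3.69 to 59.7 that covers counting error only. When every gene with a molecule was tested, limma gave a log2 difference of 1.70 (adjusted p = 0.000652 with Benjamini-Hochberg adjustment, with 3.24% of 12990 genes called). Over the other settings tried, the exact p ranged from 0.00391 to 0.25, the latter within the 3 SE mice, the smallest that 3 pairs allow.

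Because B cells carry *Cxcr5*, the markers of B cells were set beside it. CD4+ SE replicate 1, with the lowest B-cell marker sum of the CD4+ libraries, 35.0, had a *Cxcr5* count of 2.06 (2 molecules). Its *Cd74* count, 10.3, lay above the CD8+ SE libraries (0 to 2.57) and below CD8+ EE replicate 6 (34.4). CD4+ SE replicate 3, with the highest sum of 297, had a *Cxcr5* count of 2.75 (3 molecules). CD4+ EE replicate 2 and CD4+ SE replicate 4, with the highest *Cxcr5* counts, had sums of 200 and 197. Counts this small do not order the libraries. The part of B-cell RNA in the difference between the populations was not tested. The highest *Cxcr5* values, 7.51 in CD4+ EE replicate 2 and 6.40 in CD4+ SE replicate 4, came from the libraries with the highest sums of the 6 regulatory T-cell markers, 81.5 and 80.5, against 19.4 to 69.5 in the other CD4+ libraries and 14.0 to 23.3 in CD8+ libraries (most abundant *Tnfrsf18*, means 17.4 in CD4+ EE and 15.7 in CD4+ SE). *Tnfrsf18* had means of 11.9 in CD8+ EE and 14.9 in CD8+ SE libraries (adjusted p = 0.852 between populations in limma). Of the follicular helper markers, 5 of 6 were in the table used here, with *Sh2d1a* the most abundant. They summed to 28.6 to 58.5 in CD4+ and 19.5 to 34.3 in CD8+ libraries, and *Tox2* was at 0 in both CD8+ groups. CD4+ EE replicate 2 and CD4+ SE replicate 4 had sums of 50.4 and 52.1. The highest sum, 58.5, was that of CD4+ EE replicate 5, with a *Cxcr5* count of 3.66. Neither relation was tested.

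*Cxcr4* (ENSMUSG00000045382, minus strand of chromosome 1 from 128588199 to 128592293) encodes the receptor for Cxcl12. The receptor retains cells in bone marrow and is expressed by most leukocytes. Values ranged from 0 to 8.23 (median 1.70) in CD4+ EE, 0.915 to 4.75 in CD4+ SE, 0 to 5.83 (median 4.01) in CD8+ EE and 1.86 to 4.28 in CD8+ SE libraries. The groups overlapped throughout, and the group means were 3.55 (n = 6) in CD8+ EE, 2.92 (n = 4) in CD8+ SE, 2.73 (n = 6) in CD4+ EE and 2.59 (n = 5) in CD4+ SE. With SDs of 1.01 to 2.96, they lay closer to each other than the libraries within any group. Only 67 molecules were counted over the 21 libraries. The log2 difference of CD4+ from CD8+ libraries was -0.29 (SE of the estimate 0.38, adjusted p = 0.799 in limma), and the CD8+ value was the higher in 6 of 9 mice (exact sign-flip test, p = 0.324). With each library left out in turn, this log2 difference ran from -0.489 to -0.139.

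*Ccr9* (ENSMUSG00000029530, plus strand of chromosome 9 from 123678439 to 123784330) encodes the receptor for Ccl25, a chemokine of thymus and small intestine. The normalized count of *Ccr9* was 9.40 to 24.5 (median 15.0) in CD8+ EE libraries, and 15.4, 24.2, 23.8 and 24.0 in CD8+ SE replicates 1, 2, 3 and 6. In CD4+ EE libraries it was 0 to 3.22 (median 0.457), and in CD4+ SE replicates 1, 3, 4, 5 and 6 it was 1.03, 0, 0, 0.950 and 0. All 10 CD8+ libraries thus lay above all 11 CD4+ libraries, in which 0 to 3 molecules were counted and 6 had none. The order of the group means was 21.9 ± 4.31 (SD, n = 4) in CD8+ SE, 16.4 ± 6.57 (SD, n = 6) in CD8+ EE, 0.842 ± 1.25 (SD, n = 6) in CD4+ EE and 0.396 ± 0.543 (SD, n = 5) in CD4+ SE, and only CD8+ EE and CD4+ EE were neighbours without overlap. Summed over libraries, 207 molecules were counted in CD8+ and 7 in CD4+ T cells, a ratio per total molecules of 28.6 with a 95% interval of 13.6 to 71.9 for counting error. On the log2(normalized count + 1) scale, which understates the change of a gene with few molecules, the difference of CD4+ from CD8+ was -3.73 (SE of the estimate 0.32, adjusted p = 8.96e-15 in limma), with the CD8+ value the higher in 9 of 9 mice (exact sign-flip test, p = 0.00391). By this difference *Ccr9* stood at rank 5 of the 7938 genes ordered from the highest in CD8+ T cells. The log2 difference was -3.37 within EE mice and -4.10 within SE mice.

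*Cxcr6* (ENSMUSG00000048521, plus strand of chromosome 9 from 123806475 to 123811760) encodes the receptor for Cxcl16 and is a feature of effector, memory and tissue-resident T cells. In CD8+ EE libraries *Cxcr6* had 9.66 to 15.8 (median 13.6) normalized counts, and it had 5.14, 18.6, 7.07 and 9.61 in CD8+ SE replicates 1, 2, 3 and 6. In CD4+ EE libraries it was 0.914 to 2.52 (median 2.14), and in CD4+ SE replicates 1, 3, 4, 5 and 6 it was 1.03, 3.66, 2.74, 0 and 1.13. The CD8+ libraries again lay above all CD4+ libraries, and those of SE mice were the more spread, holding both the lowest and the highest CD8+ value. Of the 5 receptors tested, *Ccr9* and *Cxcr6* had populations without overlap, where 0.869% of the 7938 genes tested did, but both entered the test through their CD8+ libraries and nothing is read from this count. The means were 13.3 ± 2.10 (SD, n = 6) in CD8+ EE, 10.1 ± 5.96 (SD, n = 4) in CD8+ SE, 1.96 ± 0.558 (SD, n = 6) in CD4+ EE and 1.71 ± 1.47 (SD, n = 5) in CD4+ SE, and only CD8+ SE and CD4+ EE were neighbours without overlap. In summed molecules, 133 in CD8+ against 20 in CD4+ T cells gave a ratio per total molecules of 6.43 (95% interval 4.00 to 10.9 for counting error). The log2 difference of CD4+ from CD8+ was -2.18 (SE of the estimate 0.30, adjusted p = 1.34e-07 in limma), and the CD8+ value was the higher in 9 of 9 mice (exact sign-flip test, p = 0.00391). It was -2.28 within EE mice and -2.09 within SE mice.

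**Figure D2:**
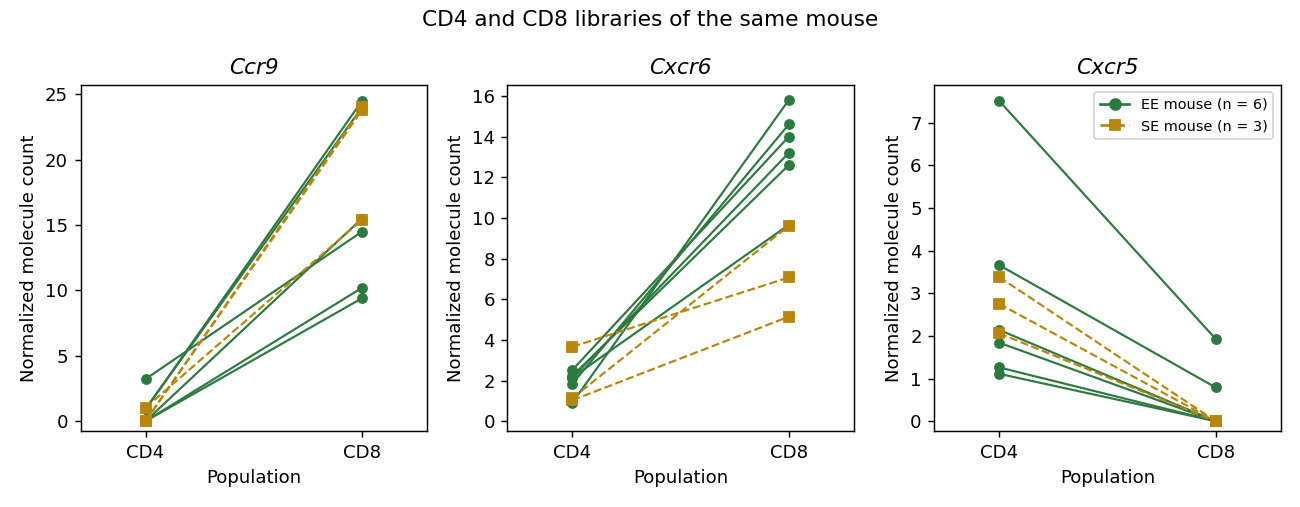
Normalized molecule counts (vertical axis) of *Ccr9*, *Cxcr6* and *Cxcr5* in the CD4+ and CD8+ libraries of the same mouse, joined by a line (6 EE mice, solid lines and circles; 3 SE mice, dashed lines and squares). Every line rises towards CD8+ for *Ccr9* and *Cxcr6* and falls for *Cxcr5*.

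*Ccr9* and *Cxcr6* are neighbours in the genome. *Ccr2*, which had fewer molecules in CD8+ than in CD4+ libraries, lies further along the chromosome, beyond *Xcr1*, *Ccr1*, *Ccr1l1* and *Ccr3*. Of the 7 receptor genes, 4 lie on chromosome 9, and *Ccr9*, *Cxcr6* and *Ccr2* share a stretch of 435.1 kb, in which 22.1 kb separate the end of *Ccr9* from the start of *Cxcr6* and 290.2 kb separate *Cxcr6* from *Ccr2*. *Cxcr6* lies inside *Fyco1* on the opposite strand, and *Ccr9* spans *Lztfl1* and the pseudogene *Gm10052* (mean 6.70 over the 21 libraries), also on the opposite strand. Elsewhere on the chromosome, the end of *Cxcr5* overlaps that of *Bcl9l* (mean 8.16) on the opposite strand. Whether the molecules were counted by strand is not given in the sources used here, and without strand the reads of such pairs cannot be told apart. *Fyco1* did not show the pattern of *Cxcr6*, with means of 10.5 in CD4+ EE, 8.55 in CD4+ SE, 11.3 in CD8+ EE and 11.7 in CD8+ SE libraries (log2 difference -0.35, SE of the estimate 0.24, adjusted p = 0.541 in limma). *Lztfl1* had means of 2.81, 2.88, 7.07 and 6.18 in the same order (log2 difference -1.01, SE of the estimate 0.36, adjusted p = 0.113 in limma), with overlapping populations. The neighbours *Limd1* and *Sacm1l* had log2 differences of 0.14 and -0.39 (adjusted p = 0.843 and 0.682 in limma). The other 6 of the 13 protein-coding genes in the region mapped, *Ccr1*, *Ccr3* and *Xcr1* among them, were not in the table used here.

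**Figure D3:**
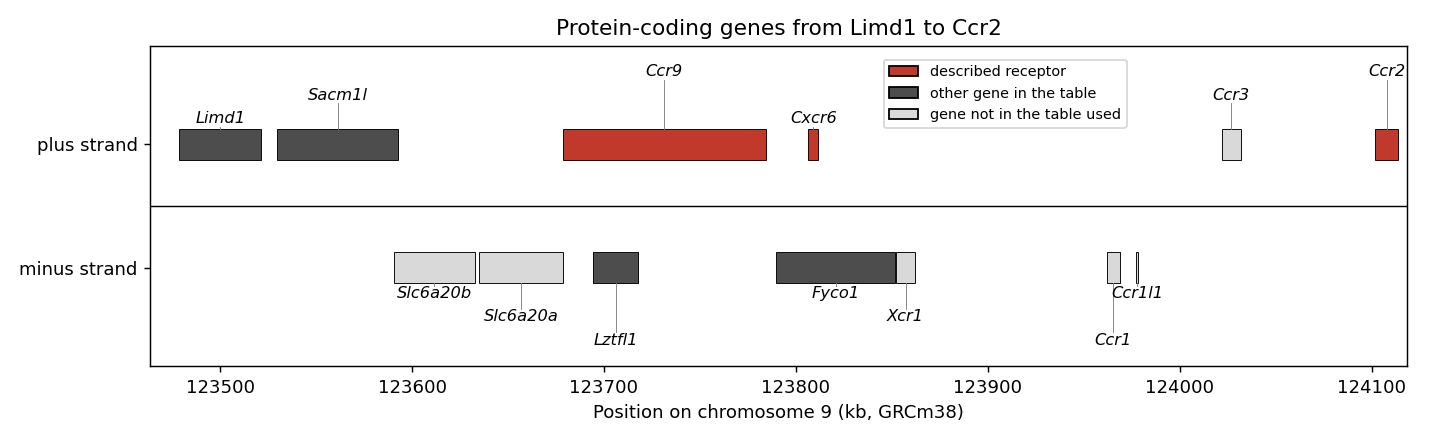
Protein-coding genes on 634.9 kb of chromosome 9 that hold *Ccr9*, *Cxcr6* and, at their end, *Ccr2* (horizontal axis, position in kb on GRCm38, to scale; boxes above the line are on the plus strand and boxes below it on the minus strand). The described receptors are red, other genes of the table dark grey and genes not in the table used here light grey, and *Cxcr6* lies opposite to *Fyco1*.

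Since *Ccr9* and *Cxcr6* were both higher in CD8+ T cells, as was *Runx3*, which encodes a transcription factor of the CD8+ lineage, the bases just upstream of both genes are shown. *Runx3* had a normalized count of 2.52 to 9.65 (median 4.61) in CD4+ and 12.1 to 32.6 (median 20.0) in CD8+ libraries without overlap (log2 difference -1.72, SE of the estimate 0.23, adjusted p = 7.24e-08 in limma, CD8+ above the CD4+ mean in 10 of 10 libraries). Of the 7 receptors, 5 were matched by symbol to a promoter in RefSeq (build GRCm38.p6), and *Ccr7* and *Cxcr5* were not. The RefSeq starts of *Ccr9*, *Ccr2* and *Cxcr3* lie inside the spans given here for these genes, and that of *Cxcr6* lies just inside its span. The bases searched before them thus lie wholly (*Ccr9*) or partly (*Ccr2* and *Cxcr3*) within the gene. The core of the motif that RUNX factors bind, TGTGGT, was searched on both strands (ACCACA on the opposite one) in the 250 bases before the RefSeq start, and it was found in 14.0% of the 32851 windows of this length. *Cxcr6* held 1 match, on the opposite strand and starting at position -10 from that start. *Cxcr3* held 1, starting at position -110 and inside the span of the gene, and *Ccr9*, *Ccr2* and *Cxcr4* held 0. The windows lie on the plus strand at chr9:123766961-123767210 (*Ccr9*) and chr9:123806227-123806476 (*Cxcr6*), and capitals mark the match.
Ccr9: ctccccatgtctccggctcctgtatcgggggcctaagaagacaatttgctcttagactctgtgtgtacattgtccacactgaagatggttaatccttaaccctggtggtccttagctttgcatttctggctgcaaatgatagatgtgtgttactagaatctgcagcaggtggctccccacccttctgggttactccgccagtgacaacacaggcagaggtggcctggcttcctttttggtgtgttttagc
Cxcr6: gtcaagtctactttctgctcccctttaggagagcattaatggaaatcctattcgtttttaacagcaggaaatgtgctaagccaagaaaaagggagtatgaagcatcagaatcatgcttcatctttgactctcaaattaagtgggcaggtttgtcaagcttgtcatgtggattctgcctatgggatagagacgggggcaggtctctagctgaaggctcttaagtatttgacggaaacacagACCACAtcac
A match describes the letters of the window and shows no binding.

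*Cxcr3* (ENSMUSG00000050232, minus strand of chromosome X from 101731535 to 101734269) encodes the receptor for Cxcl9, Cxcl10 and Cxcl11, carried by effector and memory T cells. Its normalized count was 3.21 to 22.9 (median 7.53) in CD4+ EE libraries and 1.03, 9.15, 5.49, 2.85 and 11.3 in CD4+ SE replicates 1, 3, 4, 5 and 6. In CD8+ EE libraries it was 1.88 to 6.33 (median 2.85), and in CD8+ SE replicates 1, 2, 3 and 6 it was 2.57, 2.79, 6.18 and 2.88. The populations overlapped, although only CD4+ libraries exceeded 6.33, and the highest value came from CD4+ EE replicate 5, which also had the highest *Cxcr4* value, 8.23. The means ran from 9.26 ± 7.39 (SD, n = 6) in CD4+ EE over 5.96 ± 4.26 (SD, n = 5) in CD4+ SE to 3.61 ± 1.72 (SD, n = 4) in CD8+ SE and 3.50 ± 1.82 (SD, n = 6) in CD8+ EE, and all neighbours overlapped. The log2 difference of CD4+ from CD8+ libraries was 0.69 (SE of the estimate 0.33), with an unadjusted p of 0.0401 that did not pass adjustment over all genes (adjusted p = 0.302 in limma), where 14.8% of all genes had an unadjusted p under 0.05. The CD4+ value was the higher in 7 of 9 mice (exact sign-flip test, p = 0.0352, not adjusted).

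*Ccr2* (ENSMUSG00000049103, plus strand of chromosome 9 from 124101950 to 124113557) encodes the receptor for Ccl2, carried by monocytes and by some effector and memory T cells. It was counted with 24 molecules in all, 10 of them in CD4+ EE replicate 2. No molecule was found in 3 of the 6 CD4+ EE libraries, and normalized counts were 10.7, 3.34 and 1.84 in replicates 2, 4 and 6, and it was 0, 0.915, 0.914, 1.90 and 2.25 in CD4+ SE replicates 1, 3, 4, 5 and 6. In CD8+ libraries it was 1.72 in EE replicate 6, 0.961 in SE replicate 6 and 0 in the rest. The groups overlapped, and the CD4+ value was the higher in 5 of 9 mice and the lower in 0, with no molecule in either library of the others (exact sign-flip test, p = 0.0625, the smallest that 5 differences other than 0 allow, so that the test could not pass). When every gene with a molecule was tested, its log2 difference was 0.87 (SE of the estimate 0.34, unadjusted p = 0.0113, adjusted p = 0.183 in limma). The ratio of CD4+ to CD8+ molecules per total was 7.25 (95% interval 2.16 to 37.9 for counting error), and 4.151 (1.10 to 23.2) without CD4+ EE replicate 2. Of 13 myeloid markers, 8 were in the table used here. *Ly6c2*, which CD8+ T cells also express, was the most abundant with means of 138 in CD8+ EE and 91.9 in CD8+ SE libraries, whereas *Lyz2* and *Csf1r*, which define monocytes and macrophages, had means of 0.928 and 0.888 in CD4+ EE libraries and were at 0 in CD4+ SE libraries. In CD4+ EE, *Lyz2* was found in only 1 of 6 libraries, at 5.57, and *Csf1r* in 3 of 6, at up to 3.34. In CD8+ libraries *Lyz2* and *Csf1r* were at 0 in EE and had means of 4.94 and 0.240 in SE. *Tyrobp* had means of 2.62 in CD4+ EE, 1.35 in CD4+ SE, 0.264 in CD8+ EE and 0.870 in CD8+ SE libraries, *Cd68* had 1.16, 0.396, 0.298 and 0.461, and *Fcer1g* had 0.736 and 1.98 in the CD4+ groups and was at 0 in both CD8+ groups. *Fcgr3* was at 0 in both CD4+ groups and had 0.587 in CD8+ EE and 0.461 in CD8+ SE libraries, and *Cebpb* had 0.186, 1.16, 0.474 and 0.214 in the order above. The 8 markers summed to 21.5 in CD4+ EE replicate 2, against 1.26 to 36.8 in the other CD4+ EE libraries, and their part in *Ccr2* was not tested.

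Between EE and SE, no receptor passed the test in either population. In CD4+ T cells 4 receptors (*Ccr7*, *Cxcr3*, *Cxcr4* and *Cxcr5*) had a mean above 2. Of these, limma, edgeR and DESeq2 each gave 0 with an adjusted p under 0.05 and 0 with an unadjusted p under 0.05, where 0.0126% and 5.82% of 7939 genes did in limma. In CD8+ T cells 5 receptors (*Ccr7*, *Ccr9*, *Cxcr3*, *Cxcr4* and *Cxcr6*) were tested, and each tool again gave 0 at either threshold, where 0% and 5.27% of 7840 genes did in limma. The EE and SE libraries overlapped for all 7 receptors in both populations, whereas 0.453% of the genes tested in CD4+ and 1.06% of those tested in CD8+ T cells were without overlap. In CD4+ T cells the log2 difference of EE from SE was -0.13 for *Ccr7* (SE of the estimate 0.15, adjusted p = 0.933 in limma), and 1 of 6 EE libraries lay above the SE mean (exact permutation test over 462 splits, p = 0.169). With each library left out in turn, this log2 difference ran from -0.193 to -0.079. *Cxcr3* had 0.56 (SE of the estimate 0.45, adjusted p = 0.912 in limma), with 3 of 6 EE libraries above the SE mean, and ran from 0.181 without CD4+ SE replicate 1 to 0.829 without CD4+ SE replicate 6.

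In CD8+ T cells *Ccr9*, *Cxcr6* and *Ccr7* differed between EE and SE in opposite directions, none past the test. *Ccr9* was the lower in EE, by a log2 difference of -0.46 (SE of the estimate 0.27, adjusted p = 0.962 in limma), and 2 of 6 EE libraries lay above the SE mean (exact permutation test over 210 splits, p = 0.205). *Cxcr6* was the higher in EE, by 0.49 (SE of the estimate 0.31, adjusted p = 0.962 in limma), with 5 of 6 EE libraries above the SE mean (exact permutation test, p = 0.243), and ran from 0.253 without CD8+ SE replicate 1 to 0.811 without CD8+ SE replicate 2. *Ccr7* was the higher in EE, by 0.24 (SE of the estimate 0.15, adjusted p = 0.962 in limma), also in 5 of 6 EE libraries (exact permutation test, p = 0.100). Without the 2 libraries with much globin RNA these differences were -0.54, 0.36 and 0.37 (adjusted p = 0.912, 0.954 and 0.907 in limma), an alternative chosen after the data were seen, and the unadjusted p of *Ccr7* was then 0.031 in limma. In a fit blocked by replicate number, *Ccr9* had -0.63 (unadjusted p = 0.0291, adjusted p = 0.896 in limma). This block joins EE and SE mice that share a number but were different animals. A p that misses the threshold does not show that the environments were alike.

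Whether the effect of the environment differed between the populations was tested by the interaction. Of 5 receptors tested, 0 had an adjusted or unadjusted p under 0.05 in limma, edgeR or DESeq2, where 0% and 4.95% of 7938 genes did in limma. *Ccr7* had the smallest unadjusted p, with a log2 interaction of -0.37 (SE of the estimate 0.21, unadjusted p = 0.078, adjusted p = 0.994 in limma), from a lower value in EE in CD4+ and a higher value in EE in CD8+ T cells. Without the 2 libraries with much globin RNA it was -0.49 (unadjusted p = 0.0293, adjusted p = 0.998 in limma).

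The other genes of the chemokine system were described from lists. Of 15 other chemokine receptors, 3 were in the table used here, *Ccr6*, *Ccr8* and *Ccr10*, and each had group means of at most 3.11. *Ccr6*, known from Th17 and B cells, had 1.38 in CD4+ EE, 3.11 in CD4+ SE, 0.859 in CD8+ EE and 0 in CD8+ SE libraries, and only it was tested, in CD4+ T cells, where EE differed from SE by a log2 value of -0.81 (SE of the estimate 0.56, adjusted p = 0.878 in limma). Of 28 chemokine ligands, 4 were in the table (*Ccl5*, *Ccl25*, *Ccl27a* and *Xcl1*) and only *Ccl5* had a mean above 2.

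*Ccl5*, a chemokine made by memory and effector T cells, was spread widely between libraries of the same group. Its normalized count was 3.21 to 171 (median 67.9) in CD4+ EE libraries and 0, 45.8, 35.7, 32.3 and 4.50 in CD4+ SE replicates 1, 3, 4, 5 and 6. In CD8+ EE libraries it was 13.2 to 152 (median 95.1), and in CD8+ SE replicates 1, 2, 3 and 6 it was 98.5, 1.86, 23.8 and 8.65. EE and SE overlapped in both populations. The log2 difference of EE from SE was 1.80 in CD4+ (SE of the estimate 0.57, unadjusted p = 0.00283, adjusted p = 0.629 in limma) and 1.96 in CD8+ T cells (SE of the estimate 0.47, unadjusted p = 0.000125, adjusted p = 0.407 in limma), and 4 of 6 EE libraries lay above the SE mean in each. It did not pass adjustment over all genes in either population, and in both its unadjusted p was under 0.05 in edgeR and not in DESeq2.

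Signalling downstream of the receptors was represented by 26 genes, all in the table and all tested. Between the populations 0 were called higher in CD4+ and 1 higher in CD8+ T cells, with a median log2 difference of 0.07 against -0.01 over all genes tested, where 2.33% and 2.07% were called in these directions. The gene was *Pik3cd*, which encodes a catalytic subunit of phosphoinositide 3-kinase, with a mean of 60.9 ± 11.0 (SD, n = 11) in CD4+ and 80.3 ± 9.84 (SD, n = 10) in CD8+ libraries (log2 difference -0.41, SE of the estimate 0.11, adjusted p = 0.0136 in limma, CD8+ above the CD4+ mean in 10 of 10 libraries). For the environments in CD4+ T cells, limma, edgeR and DESeq2 each called 0 of the 26 after adjustment, and 3, 1 and 1 had an unadjusted p under 0.05, where 5.82% of all genes did in limma. *Gnai2*, the inhibitory G protein subunit through which these receptors signal, was the higher in EE (6 of 6 libraries above the SE mean), and *Pik3cg* and *Rap1a* the lower (5 of 6 below it for each), with log2 differences of 0.36, -0.95 and -0.48 (adjusted p = 0.823, 0.831 and 0.835 in limma). In CD8+ T cells each tool called 0 after adjustment and 2 without it, where 5.27% of all genes had an unadjusted p under 0.05 in limma. *Pik3r5*, a regulatory subunit of the kinase, had 0.84, with all 6 EE libraries above all 4 SE libraries (1.06% of the genes tested were without overlap), and *Gnai2* had -0.38, with 5 of 6 EE libraries below the SE mean (adjusted p = 0.898 and 0.923 in limma).

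*Gnai2* thus differed in opposite directions in the populations. Its normalized count was 65.5 ± 9.33 (SD, n = 6) in CD4+ EE and 50.9 ± 8.53 (SD, n = 5) in CD4+ SE libraries, and 50.6 ± 9.86 (SD, n = 6) in CD8+ EE and 65.5 ± 9.72 (SD, n = 4) in CD8+ SE libraries. EE and SE overlapped in each population. The log2 interaction was 0.74 (SE of the estimate 0.23, unadjusted p = 0.00182) and did not pass adjustment over all genes (adjusted p = 0.924 in limma). Of the 26 signalling genes, 2 had an unadjusted p under 0.05 for the interaction and 0 an adjusted one in limma, edgeR and DESeq2 alike, where 4.95% of all genes had an unadjusted one in limma. In limma the other was *Pik3r5*, with -1.14 (SE of the estimate 0.46, unadjusted p = 0.0171, adjusted p = 0.975).

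Of 13 genes that desensitize or restrain the receptors (receptor kinases, arrestins and regulators of G protein signalling), 10 were in the table and 9 were tested between the populations. In limma 0 of the 9 had an adjusted p under 0.05 and 2 an unadjusted one, where 14.8% of all genes did, and the median log2 difference was 0.12 against -0.01 over all genes tested. edgeR and DESeq2 each called 1 after adjustment, where they called 365 and 324 of all genes. This was *Rgs19*, with a mean of 29.9 ± 12.5 (SD, n = 11) in CD4+ and 18.4 ± 4.78 (SD, n = 10) in CD8+ libraries, overlapping (log2 difference 0.59, SE of the estimate 0.19, adjusted p = 0.0588 in limma). For the environments, 0 of 10 in CD4+ and 0 of 9 in CD8+ T cells passed with or without adjustment in limma, edgeR or DESeq2. Of 8 transcription regulators linked to receptor genes, 6 were in the table and 4 were tested between the populations, of which 0 were called higher in CD4+ and 2 higher in CD8+ T cells, where 2.33% and 2.07% of all genes were, and the median log2 difference was -0.72 against -0.01 over all genes tested. *Eomes* passed the limit on the mean only through its CD8+ libraries, so that this count and median carry little weight. The genes called were *Runx3* and *Eomes*, a T-box factor of effector and memory CD8+ T cells, with a mean of 0.855 ± 0.944 (SD, n = 11) in CD4+ and 3.84 ± 2.27 (SD, n = 10) in CD8+ libraries (log2 difference -1.34, SE of the estimate 0.38, adjusted p = 0.0225 in limma, CD8+ above the CD4+ mean in 10 of 10 libraries). For the environments, 0 of 3 regulators in CD4+ and 0 of 4 in CD8+ T cells passed with or without adjustment in limma, edgeR or DESeq2.

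Cytotoxic and other markers completed the picture of the sorted cells. Of 7 NK-cell markers, 4 were in the table used here, and they summed to 10.1 to 40.2 in CD4+ and 186 to 241 in CD8+ libraries, most of it *Nkg7*, which CD8+ T cells also express, while *Klrb1c* had means of at most 0.484. The highest CD4+ sum, 40.2, was that of EE replicate 5, the library with the highest *Cxcr3*. CD4+ SE replicate 6, with the next highest *Cxcr3* (11.3), had a sum of 14.6, and a relation was not tested. Of 8 dendritic-cell markers, 3 were in the table, with sums of 3.38 to 27.5 in CD4+ and 7.95 to 22.3 in CD8+ libraries and *Bst2* the most abundant.

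Only *Ccr7* was abundant enough (mean above 10) for its variation within groups to be compared with that of other genes. Over the 21 libraries, after subtraction of each group's mean, its log2 value was most like those of *Ccdc55*, *Romo1* and *Ube3a* among 2726 genes with a mean above 10 (Pearson r = 0.704, 0.701 and 0.650). These are the highest of many correlations across libraries that share their normalization, and are given as a description.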

How the data were processed

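RNA of CD4+ and CD8+ T cells sorted from the spleens of EE and SE mice was sequenced on an Ion Proton instrument with molecular tags. According to the study's methods, the authors trimmed reads with cutadapt, aligned them with STAR 2.4.0a to mm10, used the Drop-seq tools to count distinct molecules, removed genes of low abundance and divided by DESeq2 size factors, so the deposited values are a signal of normalized molecule counts. These steps are described there for another tissue of the study.

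Dividing the values of a library by the lowest one above 0 gave whole molecules for 100% of the values (tolerance 0.02). Genes with a mean above 2 were tested with limma 3.58.1 (trend) in R 4.3.3 on log2(value + 1), with Benjamini-Hochberg adjustment over all genes tested and a threshold of 0.05, for EE against SE in each population and, over all 21 libraries, for CD4+ against CD8+ and the interaction. The fits were tested on simulated data. Single receptors were compared by exact two-sided tests, which are not adjusted. Ratios of summed molecules carry exact conditional binomial intervals. As alternatives, the pseudocount was set to 0.5, the limit on the mean was dropped (keeping genes with at least 1 molecule) or raised to 10, and the rest were equal totals, edgeR 4.0.16 and DESeq2 1.42.0 on recovered molecules, a replicate block, each library left out in turn, each environment alone, and, chosen after the data were seen, the omission of 2 libraries with much globin RNA. CD4+ and CD8+ libraries with the same number and environment in their labels were taken to come from the same mouse. Their deviations from the group means had a mean correlation of 0.014 (-0.0149 to 0.0354, n = 9). The last numbers of the titles were consecutive within each pair, except for SE replicate 6. That pair apart, all SE numbers lay below all EE numbers, and what they order is not given. An effect of this order cannot be told apart from one of the environment. Same-numbered EE and SE mice were different animals.

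The receptors and gene lists were chosen with earlier results of these data known. Named were all receptors, the genes of the pathway lists (not the marker lists) with an adjusted p under 0.05 between populations or an unadjusted p under 0.05 between environments, the 3 genes most like a receptor with a mean above 10, and the most abundant and defining markers. Other genes were named after their values were seen, among them the neighbours and overlapping genes on chromosome 9, *Ccr6* and *Rgs19*. The promoter motif was also chosen then. A listed B-cell marker and a listed receptor are not reported here and were left out of the lists. Positions are from GENCODE M21 (GRCm38) and sequences from RefSeq (GRCm38.p6). Python 3.11.15 with pandas 2.3.3, SciPy 1.17.1 and Matplotlib 3.10.9 served for tables and figures.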

Additional observations from a re-analysis of the deposited data

Results flagged for a closer look

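In 27 groups of libraries with any molecule of a receptor, 7 values lay far from the rest of their group, where chance gives about 1 in 20, or 1.4 of 27. The rule assumes a continuous spread, and several of these values rest on 1 to 3 molecules, with the others at 0 or near it.

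*Ccr2* gave 3 of them. It was 10.7 in CD4+ EE replicate 2 (10 molecules), against 0 to 3.34 in the other CD4+ EE libraries. It was 1.72 in CD8+ EE replicate 6 (2 molecules) and 0.961 in CD8+ SE replicate 6 (1 molecule), where the other libraries of each group were at 0. CD4+ EE replicate 2 was also apart for *Ccr9*, at 3.22 (3 molecules) against 0 to 0.922, and had the highest sum of regulatory T-cell markers, 81.5.

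In CD8+ SE replicate 1, *Ccr9* was 15.4 (18 molecules) against 23.8 to 24.2 in the other 3 CD8+ SE libraries, and *Cxcr6* was at its lowest CD8+ value there, 5.14. CD8+ SE replicate 3 was high for *Ccr7*, at 65.4 (74 molecules) against 53.1 to 54.9, and for *Cxcr3*, at 6.18 (7 molecules) against 2.57 to 2.88. This library also had the highest erythroid marker sum, 1030, and the part of globin RNA in these values was not tested.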

How the results depend on the processing

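Of 542 values of single receptors under another setting, 512 kept their direction. Each kept its side of the threshold of 0.05, on the adjusted p where limma, edgeR or DESeq2 was used and on the exact p elsewhere, except that *Cxcr5* between populations had an exact p of 0.25 in the 3 SE mice alone, the smallest that 3 pairs allow. The log2 difference of *Ccr9* between populations stayed between -3.88 and -3.67 with each library left out in turn, and that of *Cxcr6* between -2.31 and -2.02. The 30 reversals were of differences that passed no test. *Cxcr4* between EE and SE in CD4+ T cells became 0.147 with edgeR and 0.144 with DESeq2, and in CD8+ T cells -0.082 with a pseudocount of 0.5, -0.387 with the replicate block and -0.105 without the libraries with much globin RNA. Without these libraries, *Cxcr3* in CD8+ T cells was 0.063 and the mean difference of *Ccr2* -0.32, which was -0.003 (log2) with no filter on means. With each library left out, *Cxcr4* ran from -0.52 to 0.122 in CD4+ and from -0.155 to 0.399 in CD8+ T cells, *Cxcr3* in CD8+ from -0.222 to 0.172, and the interactions of *Cxcr4* and *Cxcr6* from -0.588 to 0.112 and from -0.516 to 0.048. The mean differences of *Ccr9*, *Ccr2* and *Cxcr6* in CD4+ T cells ran from -0.0286 to 0.615, from -0.159 to 1.99 and from -0.175 to 0.74, and that of *Ccr2* in CD8+ from -0.24 to 0.286. The cause of these reversals was not tested. For *Cxcr5* and *Ccr2* between populations, and other receptors with a mean under 2 in a comparison, the alternatives on log values were not run, apart from that without a filter and, for *Ccr2* in CD4+ T cells (log2 difference 0.175), that with equal totals, where its mean passed 2.

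In CD4+ T cells the count of genes that passed adjustment between the environments, 1, was 0 with a pseudocount of 0.5, a mean above 10 or the replicate block, 3 with no filter and 2 with edgeR, and 0 to 3 with each library left out. In CD8+ T cells, 0 became 3 with no filter and 2 with the replicate block, and 0 to 3 with each library left out. Between populations, 349 genes became 216 with a mean above 10, where fewer genes were tested, and 227 in EE and 105 in SE mice alone, where fewer libraries were. With the mouse as a replicate block it was 311, *Ccr9* had a log2 difference of -3.74 and *Cxcr6* of -1.93, and the interaction of *Cxcr4* was 0.121. The block changed no call of a receptor. Same-numbered EE and SE mice were different animals, whose deviations had mean correlations of 0.0083 (n = 5) and 0.0052 (n = 4).

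With 24 to 67 molecules in all, *Ccr2*, *Cxcr5* and *Cxcr4* were close to the depth limit of these libraries, and moderate differences in them could not be seen. The 4 CD8+ SE libraries limit the comparison of environments, which is also a comparison of cages.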
